A study of Homo sapiens with 6 samples.

Results

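The CXC chemokines and CCL20 described here are 10 human genes, CXCL1, CXCL2, CXCL3, CXCL5, CXCL6, CXCL8, CXCL10, CXCL16, CX3CL1 and CCL20, picked by symbol as neutrophil-attracting and other epithelial chemokines. Each symbol stood on a single row of the tables, so 10 of 58515 singly named rows are described. RNA was sequenced from tumours that MHCC97L cells, an established human line of hepatocellular carcinoma, formed as xenografts, in 6 libraries. Of these, 3 are labelled Ctrl and 3 rhLUM, for recombinant human lumican, and lumican is a secreted proteoglycan of the extracellular matrix. The sources used here do not give the strain, age or remaining immune cells of the hosts, the dose, route or duration of lumican, or what the Ctrl group received. Both groups share the tumour line. No label ties the 3 libraries of each group to separate tumours, so the p-values measure only the spread between these libraries, which may be technical.

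Chemokines are small secreted proteins that guide leukocytes along a gradient by binding receptors of the G protein-coupled family. CXC chemokines that carry the Glu-Leu-Arg (ELR) motif bind CXCR1 and CXCR2 and draw neutrophils. CCL20 draws CCR6-bearing lymphocytes and dendritic cells, CXCL10 draws CXCR3-bearing T cells, and CXCL16 and CX3CL1 are made as membrane-bound proteins that can be shed. In epithelial and liver tumour cells many of these genes are switched on by interleukin 1, TNF or bacterial products through the transcription factor NF-kB.

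CXCL1, CXCL2, CXCL3, CXCL5, CXCL6 and CXCL8, the 6 genes with the ELR motif among the 10 and called the ELR genes here, and CCL20 were much lower in the rhLUM tumours than in the Ctrl tumours. Levels are in TPM, the share of a library that a gene's transcripts make up once their length is allowed for. Summed, the 6 ELR genes were at 1785 ± 16.5 TPM in the Ctrl tumours and 141 ± 2.06 TPM in the rhLUM tumours (SD, n = 3), a ratio of 12.6. The membrane-bound CXCL16 and CX3CL1 fell by much smaller amounts, and CXCL10 was close to 0 in every library. In bulk tissue, fewer cells of a type and less RNA per cell cannot be told apart.

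Of the 10 genes, 9 had a mean of at least 1 TPM and were tested, and all 9 of these fell (limma on log2(TPM + 1), adjusted p under 0.05 over all genes). Among all 14781 genes tested, 22.3% were called lower, 44.5% higher and 66.8% either way. The 6 ELR genes and CCL20 changed by -2 or less on the log2 scale, which 0.771% of all tested genes did with a call. The median change was -3.83 over the 9 tested members and 0.16 over all tested genes. In each of the 9, all 3 rhLUM libraries lay below all 3 Ctrl libraries, as did those of 24.3% of all tested genes, while in 47% the rhLUM libraries lay above.

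The start of each ELR gene holds the same 9 letters, a match to the sequence bound by NF-kB. The stretches shown are the 110 bases before the gene start that RefSeq gives (build GRCh38.p14). They run 5′ to 3′ on the gene's own strand, with matches to GGAATTTCC in capitals. Gene positions given further down are from GENCODE release 29. By those, all genes shown here but CXCL1 start farther upstream, so their stretches lie partly or wholly inside the gene. They are shown because these genes moved together.
CXCL1: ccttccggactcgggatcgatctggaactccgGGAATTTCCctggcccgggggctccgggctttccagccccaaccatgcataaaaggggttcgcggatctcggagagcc
CXCL2: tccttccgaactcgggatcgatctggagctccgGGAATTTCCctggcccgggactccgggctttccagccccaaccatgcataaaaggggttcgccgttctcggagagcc
CXCL3: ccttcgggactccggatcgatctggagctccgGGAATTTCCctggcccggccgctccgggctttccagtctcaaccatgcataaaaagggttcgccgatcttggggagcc
CXCL5: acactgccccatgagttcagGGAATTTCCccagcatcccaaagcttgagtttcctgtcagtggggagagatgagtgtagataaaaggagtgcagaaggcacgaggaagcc
CXCL6: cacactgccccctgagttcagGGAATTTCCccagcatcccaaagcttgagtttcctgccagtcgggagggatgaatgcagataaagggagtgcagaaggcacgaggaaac
CXCL8: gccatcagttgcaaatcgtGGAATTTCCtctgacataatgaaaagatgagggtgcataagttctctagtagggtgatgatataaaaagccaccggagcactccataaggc
CCL20: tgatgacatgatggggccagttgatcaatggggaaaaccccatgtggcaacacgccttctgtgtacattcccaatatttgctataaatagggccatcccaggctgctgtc

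These stretches lie at chr4:73869283-73869392 for CXCL1 (plus strand), chr4:74099196-74099305 for CXCL2 (minus), chr4:74038690-74038799 for CXCL3 (minus), chr4:73998678-73998787 for CXCL5 (minus), chr4:73836568-73836677 for CXCL6 (plus), chr4:73740459-73740568 for CXCL8 (plus) and chr2:227813732-227813841 for CCL20 (plus). Counted back from the RefSeq start, the match began at -78 in CXCL1 and CXCL3, -77 in CXCL2, -90 in CXCL5, -89 in CXCL6 and -91 in CXCL8. Windows of 300 bases around the start were listed for 8 of the 10 genes, and 7 of those 8 held GGAATTTCC on either strand. The same letters were found in 129 of 27305 RefSeq windows of that length (0.472%). Only this exact word, which every ELR gene holds, was searched. CXCL1, CXCL2 and CXCL3 are much alike before the start, as are CXCL5 and CXCL6, so their matches are not independent. The share over all windows is a background for this word, and no test was made. The exception was CCL20, and no match says only that these letters are not in its window. The match in CXCL10 lay on the opposite strand, from -176 to -168. TGANTCA, the letters bound by AP-1, was found in CXCL8 alone of the 8, from -137 to -131, and in 7.76% of all windows, and it did not overlap the other match. A match is a description and not a binding site.

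The printed stretches fall into families. CXCL1, CXCL2 and CXCL3 were 88.4% to 93.7% identical to each other over the 110 bases and 90.9% to 94.5% identical over the coding sequence. CXCL5 and CXCL6 were 91.0% identical over the 110 bases and 87.6% over the coding sequence. CXCL8 stood apart, at 46.7% to 55.7% identity with the other ELR genes before the start and 54.0% to 57.5% in the coding sequence. Likeness of this degree can let reads of one gene be assigned to another. Of all stretches of 75 bases in its transcripts, CXCL2 shared 7.07% with another gene, CXCL3 4.57%, CXCL6 0.996%, CXCL1 0.245% and CXCL5 0.122%, while CXCL8, CXCL10, CXCL16, CX3CL1 and CCL20 shared none.

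CXCL1, a CXCR2 ligand first known as a melanoma growth factor, was at 388.59, 390.51 and 398.38 TPM in Ctrl A, B and C and at 11.07, 10.41 and 10.73 in rhLUM A, B and C. The libraries of a group differed little and the groups were far apart. Its mean was 36.6 times as high in Ctrl, its log2 fold change was -5.07 (SE 0.03, adjusted p = 1.25e-09), and it ranked 6 of 14781 by size of fall.

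CXCL2, a close relative that also binds CXCR2, was at 331.21, 330.95 and 333.74 TPM in Ctrl and at 14.45, 13.46 and 12.71 in rhLUM. Its log2 fold change was -4.52 (SE 0.05, adjusted p = 4.9e-09). CXCL3, the third of this trio, was at 146.49, 149.13 and 151.56 TPM in Ctrl and at 5, 7.19 and 4.59 in rhLUM. The rhLUM B library was the highest of its group, and the groups did not overlap. The log2 fold change of CXCL3 was -4.53 (SE 0.13, adjusted p = 3.43e-07), with a 95% interval of -4.84 to -4.21 that spans that of CXCL2, -4.63 to -4.41. Summing CXCL1, CXCL2 and CXCL3, so that the split of reads among them does not matter, gave 874 ± 9.06 TPM for Ctrl against 29.9 ± 1.62 TPM for rhLUM (SD, n = 3) and a log2 fold change of -4.83 (SE 0.04, adjusted p = 2.36e-09).

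CXCL5, an ELR chemokine known from epithelial cells, was the most abundant of the 6, at 596.31, 577.79 and 580.65 TPM in Ctrl and 88.75, 89.57 and 89.64 in rhLUM. Its fall was the smallest of the ELR genes on the log2(TPM + 1) scale, -2.70 (SE 0.02, adjusted p = 1.99e-09), and its 95% interval of -2.75 to -2.65 lay apart from those of CXCL1, CXCL2, CXCL3, CXCL6 and CXCL8. CXCL6, which binds both CXCR1 and CXCR2, was the least abundant, at 14.84, 14.55 and 15.02 TPM in Ctrl and 0.95, 0.86 and 1.15 in rhLUM. Its log2 fold change was -2.99 (SE 0.09, adjusted p = 2.98e-07). The added 1 TPM holds this value down, since with 0.1 TPM added it was -3.79. CXCL6 and CXCL5 are the most alike in sequence outside the CXCL1 trio, yet their levels did not keep step. The ratio of CXCL6 to CXCL5 was 0.0249 to 0.0259 in Ctrl and 0.0096 to 0.0128 in rhLUM, and the groups did not overlap.

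CXCL8, also called interleukin 8, is the best-known human neutrophil attractant, and mice have no direct counterpart of it. It was at 318.33, 303.45 and 314.59 TPM in Ctrl and at 19.05, 21.89 and 22.27 in rhLUM. The groups were far apart, with a ratio of means of 14.8 and a log2 fold change of -3.83 (SE 0.06, adjusted p = 2.74e-08).

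CCL20, the ligand of CCR6, was the most abundant of the 10 genes in Ctrl, at 929.53, 918.88 and 901.75 TPM, and stood at 48.38, 50.33 and 52.43 in rhLUM. Its mean in Ctrl ranked 137 among all rows and in rhLUM 2956. Its ratio of means was 18.2 and its log2 fold change -4.16 (SE 0.03, adjusted p = 1.99e-09). CCL20 lies on chromosome 2 (227805739 to 227817564, GRCh38, plus strand), away from the ELR genes, and its 95% interval of -4.24 to -4.08 lay between those of CXCL8 (-3.97 to -3.69) and CXCL2.

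CXCL16, a membrane-bound chemokine that binds CXCR6 and also takes up oxidised lipoprotein, was at 36.06, 37.91 and 36.71 TPM in Ctrl and at 20.86, 19.61 and 17.57 in rhLUM. The groups did not overlap, and the log2 fold change was -0.90 (SE 0.07, adjusted p = 1.83e-05). CX3CL1, or fractalkine, the ligand of CX3CR1, was low, at 3.92, 4.69 and 4.03 TPM in Ctrl and 2.16, 1.96 and 1.73 in rhLUM. Its log2 fold change was -0.82 (SE 0.11, adjusted p = 4.69e-04). CXCL16 lies on chromosome 17 (4733526 to 4739922, minus strand) and CX3CL1 on chromosome 16 (57372458 to 57385048, plus strand). Their ratios of means, 1.91 and 2.16, were far below those of the ELR genes and CCL20, 6.55 to 36.6.

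CXCL10, an interferon-induced chemokine without the ELR motif, had 0, 0.05 and 0.05 TPM in Ctrl A, B and C and was listed at 0 in each rhLUM library. It did not pass the filter and was not tested. The start of CXCL10 (chr4:76023498-76023677, minus strand, build GRCh38.p14) is shown because it holds the same NF-kB letters, here on the opposite strand and in capitals, in a gene at the floor in both groups.
CXCL10: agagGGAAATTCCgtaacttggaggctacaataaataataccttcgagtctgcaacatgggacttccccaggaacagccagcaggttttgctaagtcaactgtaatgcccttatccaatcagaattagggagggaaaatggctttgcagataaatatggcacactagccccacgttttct

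**Figure D1:**
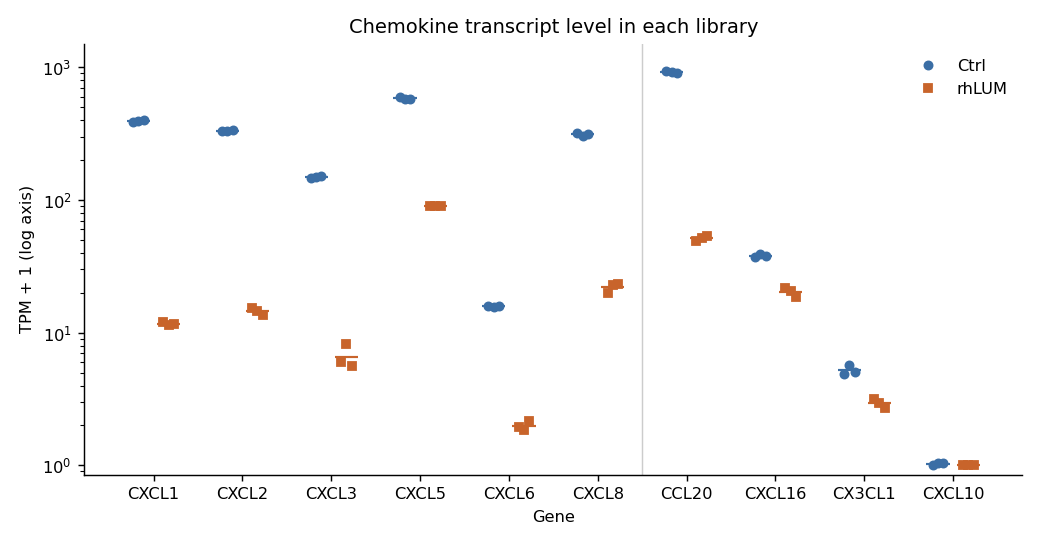
Level of each chemokine gene in each of the 6 libraries, as TPM plus 1 on a log axis, with points for libraries (Ctrl A, B, C and rhLUM A, B, C from left to right) and a line for the mean of each group of 3. CCL20 goes from about 917 TPM in Ctrl to 50.4 in rhLUM, CXCL16 from 36.9 to 19.3, and CXCL10 sits at the floor in both groups.

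The order of the genes by level differed between the groups. In Ctrl it ran CCL20, CXCL5, CXCL1, CXCL2, CXCL8, CXCL3, CXCL16, CXCL6, CX3CL1 and CXCL10, and no neighbours in this order overlapped in their 3 libraries. In rhLUM it ran CXCL5, CCL20, CXCL8, CXCL16, CXCL2, CXCL1, CXCL3, CX3CL1, CXCL6 and CXCL10, and CXCL8 and CXCL16 overlapped.

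The mixture of chemokine transcripts changed along with the total. Of the summed TPM of the 6 ELR genes and CCL20, CXCL5 made up 21.7 ± 0.20% in Ctrl and 46.6 ± 0.59% in rhLUM (SD, n = 3). CXCL1 went from 14.5 ± 0.26% to 5.61 ± 0.27%, CXCL2 from 12.3 ± 0.12% to 7.07 ± 0.58% and CCL20 from 33.9 ± 0.41% to 26.3 ± 0.71%. The share of CXCL3 went from 5.52 ± 0.13% to 2.92 ± 0.70%. CXCL8 kept nearly the same share, 11.6 ± 0.22% and 10.99 ± 0.73%, and its 3 shares in rhLUM, 10.2% to 11.5%, overlapped those in Ctrl, 11.3% to 11.7%. The small share of CXCL6, 0.548 ± 0.008% in Ctrl and 0.515 ± 0.076% in rhLUM, also overlapped between the groups. The ratio of CXCL1 to CXCL2 was 1.17 to 1.19 in Ctrl and 0.766 to 0.844 in rhLUM, so the order of this pair turned. These shares are of the same libraries as the fold changes and no test was made on them.

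**Figure D2:**
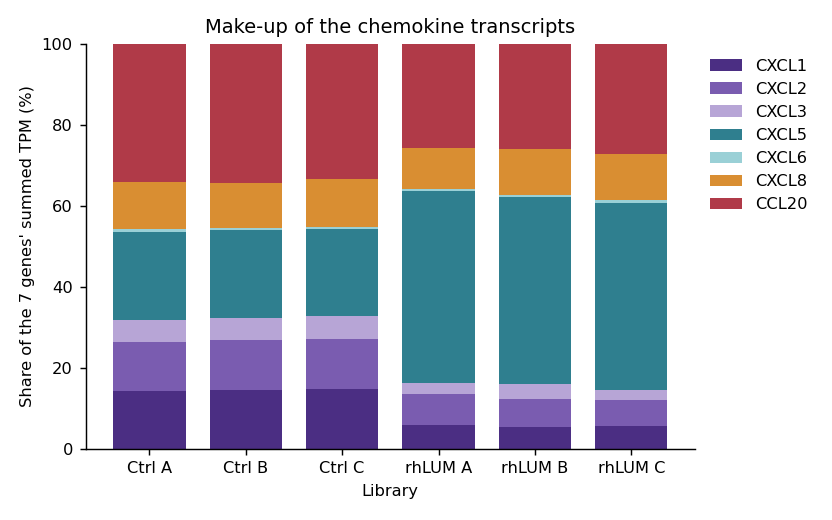
Share of the summed TPM of CXCL1, CXCL2, CXCL3, CXCL5, CXCL6, CXCL8 and CCL20 that each gene made up, in percent, in each of the 6 libraries. The CXCL5 band widens from 21.5% to 21.9% in the Ctrl libraries to 46.2% to 47.3% in the rhLUM libraries.

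Of the other 36 human chemokine genes, 35 were found by symbol and 7 had a mean of at least 1 TPM. Of these 7, 4 fell, 1 rose and 2 did not pass the test, against 22.3% lower and 44.5% higher over all tested genes. CCL26, or eotaxin-3, an attractant of eosinophils, was the most abundant and went from 111 ± 9.09 TPM to 41.6 ± 2.03 (SD, n = 3), a log2 fold change of -1.39. CXCL17, a mucosal chemokine, changed by -1.37 and PF4, or platelet factor 4, by -0.97. XCL1, or lymphotactin, stood at -0.55 (adjusted p = 0.0363), and its call was lost without Ctrl B (adjusted p = 0.106), Ctrl C (adjusted p = 0.0933) or rhLUM B (adjusted p = 0.0598). The XCL1 call was also lost with no filter on low values (adjusted p = 0.0878) and with the replicate letter as a block (adjusted p = 0.0639). PF4 and XCL1 have close copies, PF4V1 and XCL2, with which reads can be shared. CCL28, a chemokine of mucosal epithelia, rose by 0.60 (adjusted p = 4.91e-04), from 8.50 ± 0.94 to 13.3 ± 0.41 TPM. CCL15 (0.22, adjusted p = 0.0529; 0.28 and adjusted p = 0.0448 without rhLUM A) and CCL24 (-0.07, adjusted p = 0.557) did not pass. CCL15 was also called higher where at least 1 TPM was required in all libraries (adjusted p = 0.0426). With upper quartile scaling CCL24 was called lower, at -0.28 (adjusted p = 0.0356). The remaining 28 were below 1 TPM in every library, and 13 of them, CXCL9 and CCL3 among them, were listed at 0 in all 6.

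The signalling receptors of these chemokines were close to 0. CXCR1, CCR6 and CXCR6 were listed at 0 in all 6 libraries, CXCR2 at 0.02 TPM in Ctrl C and 0 elsewhere, CX3CR1 at no more than 0.06 and CXCR3 at no more than 0.39 TPM. The values are for human genes, and receptors on the host's leukocytes were not measured separately. The sources name no removal of mouse reads, so host reads of like sequence may be counted. Of 23 receptor genes, 3 had a mean of at least 1 TPM, all of them atypical receptors. ACKR4, a scavenger of CCL19 and CCL21, fell by 0.61 on the log2 scale (adjusted p = 0.00427), from 2.61 ± 0.26 to 1.36 ± 0.19 TPM (SD, n = 3). ACKR3, a scavenger of CXCL12, was at -0.16 (adjusted p = 0.0902), and at -0.21 (adjusted p = 0.0472) without rhLUM A. CCRL2, which holds chemerin at the cell surface, was at 0.19 (adjusted p = 0.314). ACKR3 was called lower after median-of-ratios scaling, at -0.31.

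**Figure D3:**
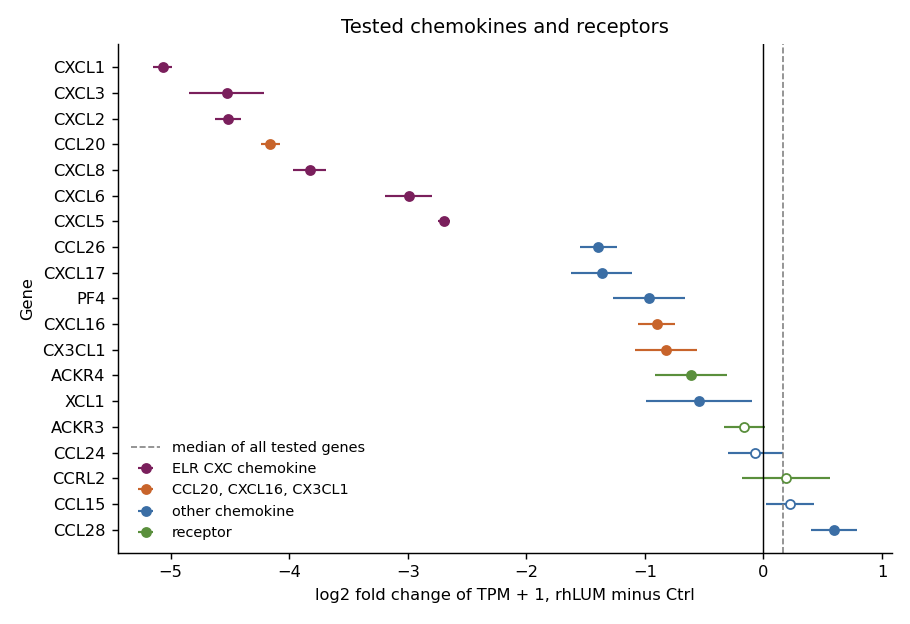
Log2 fold change of TPM plus 1, rhLUM minus Ctrl, with its 95% interval from limma, for the 19 tested chemokine and receptor genes, filled where the adjusted p was under 0.05. The 6 ELR genes and CCL20 lie at -2.70 and below, every other gene lies at -1.39 or above, and the dashed line marks the median of all tested genes at 0.16.

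Several cytokines that switch on these chemokine genes were lower, while the list they belong to moved in both directions. Of 28 tested inducers, receptors and adaptors, 9 fell, 12 rose and 7 did not pass (12, 10 and 6 after median-of-ratios scaling), with a median of 0.03. Over all tested genes 22.3% fell and 44.5% rose. The inducers that fell were IL1B, from 147 ± 1.58 to 4.30 ± 0.57 TPM, IL1A, from 29.6 ± 0.32 to 2.28 ± 0.21, TNF, from 2.89 ± 0.41 to 0.16 ± 0.12, and IL36G, from 3.52 ± 0.26 to 0.47 ± 0.21 (SD, n = 3). The others that fell were the TNF receptor TNFRSF1B (-1.49), the interleukin 17 adaptor TRAF3IP2 (-0.78), NOD1 (-0.52) and RIPK2 (-0.46) of peptidoglycan sensing, and IL1RN (-0.44), which blocks the interleukin 1 receptor. Of the 12 that rose, only the main TNF receptor TNFRSF1A is named here, at 0.59. The interleukin 1 receptor IL1R1 was at -0.11 (adjusted p = 0.077) and the adaptor MYD88 at 0.03 (adjusted p = 0.631), so neither passed. IL1R1 was called lower without Ctrl A (-0.16, adjusted p = 0.023) and under all 3 other scalings (-0.22 to -0.35), and MYD88 with upper quartile scaling (-0.20, adjusted p = 0.0117).

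The NF-kB genes moved in both directions. Of 17 tested subunits, kinases and inhibitors, 10 fell, 5 rose and 2 did not pass (11, 5 and 1 after scaling). The shares over all tested genes were 22.3% lower and 44.5% higher. Those with the smallest p were negative regulators or IkB family members that NF-kB itself induces. NFKBIA, or IkB-alpha, which holds NF-kB in the cytoplasm, went from 299 ± 4.85 to 56.4 ± 3.41 TPM (SD, n = 3), TNFAIP3, or A20, changed by -1.90, NFKBIZ, a nuclear co-activator, by -1.58 and NFKBIE by -1.31. The others that fell are not named here, so the named ones do not stand for all 10. The genes that rose were the subunits REL (0.97) and NFKB1 (0.58), the kinase complex members CHUK (0.80) and IKBKG (0.41), and the deubiquitinase CYLD (0.79). RELA, the main activating subunit, was at 42.6 ± 2.63 TPM in Ctrl and 42.8 ± 2.34 in rhLUM, with a log2 fold change of 0.01 (SE 0.06, adjusted p = 0.942). With upper quartile scaling RELA was called lower, at -0.23 (adjusted p = 0.012).

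Other known NF-kB targets that are not chemokines were also lower. Of 17 tested, 16 fell, none rose and 1, TRAF1 (-0.25, adjusted p = 0.0503), did not pass (17, 0 and 0 after scaling), with a median of -2.13. Of all tested genes 22.3% fell. The list was written with earlier results of these data known, so its count is a description only. Where at least 1 TPM was required in all libraries, 12 of the list were tested and all 12 fell. TRAF1 was also called lower under 6 alternatives, at -0.25 to -0.43. The iron-binding LCN2 changed by -5.10, the prostaglandin synthase PTGS2 by -3.43, the survival factor BIRC3 by -2.45 and the mitochondrial superoxide dismutase SOD2 by -2.05. ICAM1, the adhesion molecule that leukocytes bind, went from 144 ± 1.47 to 70.9 ± 4.40 TPM (SD, n = 3). Among the 5 tested protein-coding genes outside the 10 whose levels over the 6 libraries ran closest to the median ELR gene, TNIP3 is an inhibitor of NF-kB signalling and TNFSF14, or LIGHT, a TNF family cytokine. The others were SERPINB3, SPINK1 and FAM20A. Their root mean square difference from the median ELR gene was 0.126 to 0.194 on the log2(TPM + 1) scale, over 6 libraries in 2 groups. The added 1 TPM holds down the change of low genes, and TNFSF14 was at 0.06 TPM in rhLUM and FAM20A at 0.45. Ratios of mean TPM, Ctrl over rhLUM, were 244 for TNFSF14, 48.9 for FAM20A, 36.8 for TNIP3, 33.3 for SERPINB3 and 15.5 for SPINK1. Those of the ELR genes were 6.55 to 36.6, so likeness on this scale is not likeness in TPM.

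**Figure D4:**
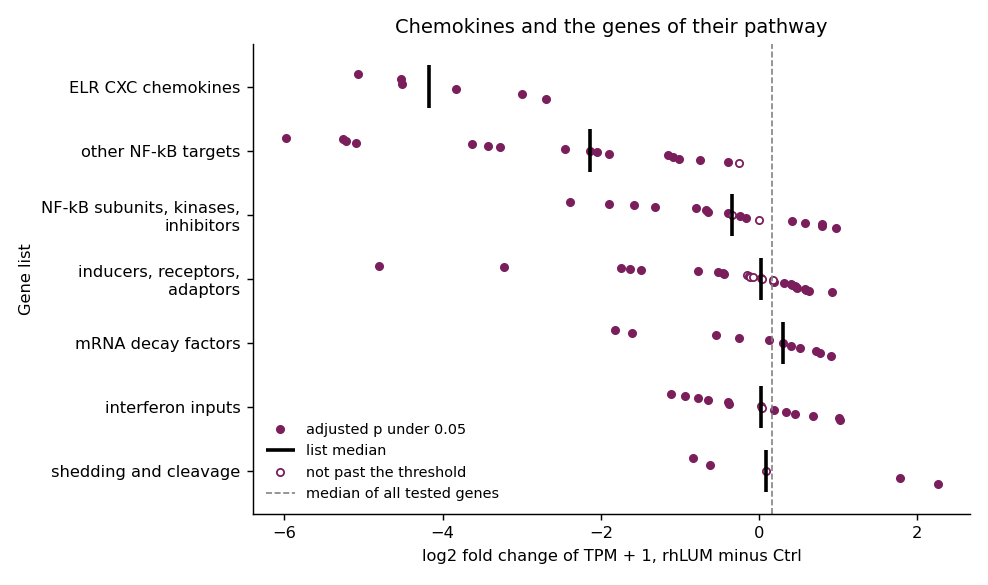
Log2 fold change of TPM plus 1, rhLUM minus Ctrl, for every tested gene of 7 lists, with a dot per gene, filled where the adjusted p was under 0.05, and a bar at the list median. The ELR chemokines have a median of -4.17 and the other NF-kB targets of -2.13, while the medians of the other 5 lists lie between -0.34 and 0.31.

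Messenger RNAs of inflammatory chemokines are known to be short-lived because AU-rich elements, often with the letters ATTTA, recruit decay factors to the untranslated end. The longest coding transcript of each ELR gene held 5 to 11 copies of ATTTA there, CCL20 3, CX3CL1 2, and CXCL16 and CXCL10 1 each, against a median of 2 over 11624 tested genes. Per kb the ELR genes held 5.36 to 13.9 and CCL20 6.24, against a median of 1.69. These 7 genes, those with the larger falls, were the members with at least 5 per kb, a density chosen after the values were seen and reached by 8.84% of tested genes. This is a count of letters with no test. CXCL1, CXCL2 and CXCL3 are alike in sequence, as are CXCL5 and CXCL6, so their counts may not be independent. Of 11 decay and stability factors, 4 fell, 7 rose and none missed the threshold (4, 6 and 1 after scaling). Among all tested genes 22.3% fell and 44.5% rose. ZFP36, or tristetraprolin, which binds ATTTA repeats and promotes decay, went from 245 ± 8.43 to 79.6 ± 2.08 TPM (SD, n = 3). The ribonuclease ZC3H12A, or regnase-1, changed by -1.82, ZFP36L1 by -0.54 and HNRNPD by -0.25. The decay factors KHSRP and ZFP36L2 rose by 0.90 and 0.72.

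Of the interferon inputs behind CXCL10, 14 of 20 were tested, and 6 rose, 6 fell and 2 did not pass (5, 7 and 2 after scaling). For all tested genes the shares were 44.5% higher and 22.3% lower. The receptor chain IFNGR1 changed by -0.65 and the kinase TYK2 by -0.94, while JAK1 (1.02) and IFNGR2 (0.34) rose. The interferon-gamma and lambda ligand genes IFNG, IFNL1, IFNL2 and IFNL3 were listed at 0 in all 6 libraries.

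A sheddase and a peptidase that act on chemokines were higher in rhLUM. ADAM10, a sheddase of CXCL16 and CX3CL1, went from 41.0 ± 3.69 to 143 ± 6.97 TPM (SD, n = 3), a log2 fold change of 1.78 (adjusted p = 1.12e-06). DPP4, which clips the amino end of CXCL10 and other chemokines, rose by 2.26, from 15.1 ± 0.55 to 76.2 ± 2.03 TPM (adjusted p = 6.34e-08). RHBDF1 and RHBDF2, partners of the sheddase ADAM17, changed by -0.83 and -0.61, and ADAM17 itself did not pass (0.09, adjusted p = 0.206; 0.14 and adjusted p = 0.0408 without rhLUM B). Of these 5 genes 2 rose and 2 fell, also after scaling, against 44.5% higher and 22.3% lower over all tested genes.

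The 6 ELR genes lie close together on chromosome 4 (GRCh38, GENCODE release 29), within 358.8 kb from CXCL8 (73740506 to 73743716, plus strand) to CXCL2 (74097035 to 74099293, minus strand). This stretch holds 9 protein-coding genes, of which 7 were tested and all 7 fell: the 6 ELR genes and PF4. PPBP, a further ELR chemokine known from platelets, and PF4V1, which lie between them, were at no more than 0.37 TPM in every library. Within 1 Mb of either end there were 15 protein-coding genes outside the ELR set, of which 11 were tested. Of these 5 fell, 4 rose and 2 did not pass, against 22.3% lower and 44.5% higher over all tested genes. ALB, which encodes albumin and starts at -343.4 kb from the start of CXCL8, rose from 289 ± 3.08 to 825 ± 15.4 TPM (SD, n = 3), a log2 fold change of 1.51. AFP, its neighbour, was at -0.12 (adjusted p = 0.178) and AFM at 0.18 (adjusted p = 0.355). RASSF6, the nearest gene before CXCL8, rose by 0.34 (0.12, adjusted p = 0.117, with upper quartile scaling), and MTHFD2L, the nearest after CXCL2, changed by -0.57.

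The EGF receptor ligands farther along changed by less than any ELR gene. EREG rose by 0.38 (adjusted p = 0.0851 with upper quartile scaling), and AREG and BTC changed by -0.50 and -0.68, BTC losing its call without Ctrl B (adjusted p = 0.0543). COX18 rose by 0.40 (0.24, adjusted p = 0.0549, after median-of-ratios scaling). ANKRD17 was at -0.19 (adjusted p = 0.026), a call lost without Ctrl A (adjusted p = 0.0705), Ctrl B (adjusted p = 0.0803), rhLUM B (adjusted p = 0.0844) or rhLUM C (adjusted p = 0.0541). The ANKRD17 call was also lost with no filter on low values (adjusted p = 0.0525) and with the replicate letter as a block (adjusted p = 0.0535). AFP was called lower after median-of-ratios scaling, at -0.28. No tested neighbour outside the ELR set was below -0.97.

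**Figure D5:**
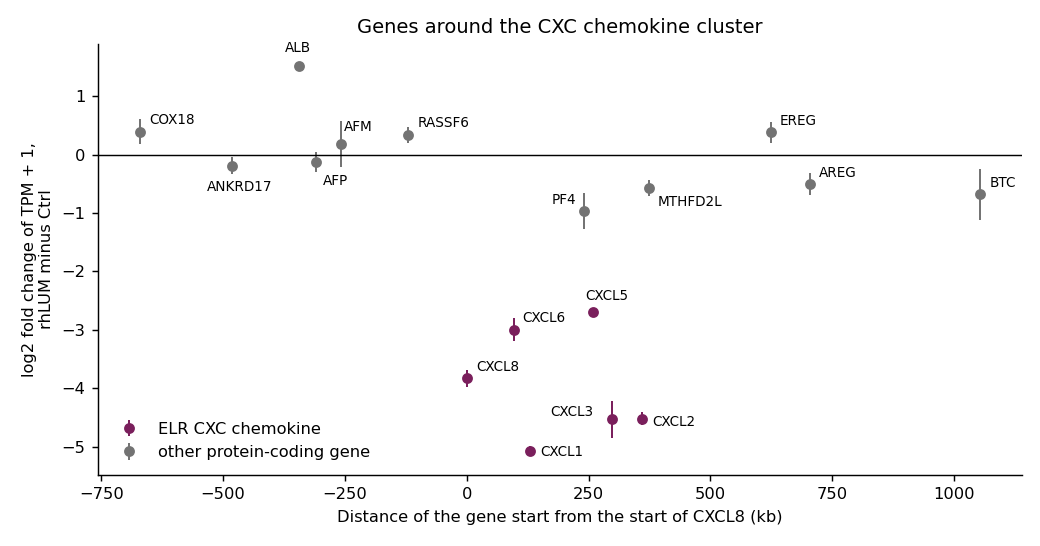
Log2 fold change of TPM plus 1, rhLUM minus Ctrl, with its 95% interval, for the 17 tested protein-coding genes within 1 Mb of the CXC chemokine cluster, against the distance of each gene start from the start of CXCL8 in kb. The ELR genes lie between -5.07 and -2.70 and the 11 other genes between -0.97 and 1.51.

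Libraries of a group correlated at 0.978 to 0.983 over log2(TPM + 1) of the tested genes and libraries of different groups at 0.928 to 0.935. Of 9 liver and epithelial markers of the labelled tumour, 8 had a mean of at least 1 TPM, and APOA1 did not. Of these 8, 5 rose, KRT8 (1.22) and ALB among them, and 2 fell, SERPINA1 (-0.87) and EPCAM (-0.74), and the summed level of the list was 2663 to 2686 TPM in Ctrl and 4696 to 4720 in rhLUM. Of 12 human leukocyte markers 2 reached 1 TPM, CD68, which rose by 0.77, and the myeloid integrin ITGAM, which changed by -0.92, from 8.01 ± 0.69 to 3.84 ± 1.00 TPM (SD, n = 3). FCGR3B and MPO of neutrophils were listed at 0 in all 6 libraries. The summed level of the leukocyte list, most of it CD68, was 42.3 to 44.4 TPM in Ctrl and 61.8 to 64.5 in rhLUM, and that of 6 endothelial markers, most of it PECAM1, 21.6 to 23.0 and 26.9 to 31.8. PECAM1 rose by 0.59, while CDH5 changed by -1.50, from 3.10 ± 0.34 to 0.45 ± 0.05 TPM. For 7 fibroblast markers the sum was 14.4 to 15.4 and 10.03 to 13.65, with DCN at -1.99 and COL1A1 at 0.51 (adjusted p = 0.0272). The COL1A1 call was lost under all 3 other scalings and without Ctrl A (adjusted p = 0.0888), Ctrl C (adjusted p = 0.0771), rhLUM A (adjusted p = 0.0805) or rhLUM C (adjusted p = 0.0961). It was also lost with no filter on low values (adjusted p = 0.0755) and with the replicate letter as a block (adjusted p = 0.0559). Whether reads of these markers came from tumour or host cells was not tested, and neither was the part of such cells in the chemokine values. The mitochondrial share of TPM was 20.5% to 20.7% in Ctrl and 14.3% to 14.5% in rhLUM, and all 9 tested chemokines were called lower with mitochondrial genes left out. Of all genes called, 66.6% were higher as deposited, 52.7% after median-of-ratios scaling and 46.5% after upper quartile scaling.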

How the data were processed

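RNA was measured in 6 xenograft libraries, 3 Ctrl and 3 rhLUM, grouped by the labels. Per the labels' protocols, poly-A RNA was selected. The aligner STAR 2.7.8, the quantifier RSEM 1.2.31 and the build GRCh38 are named in the submitters' processing notes. The sources used here give no annotation release, use of strand or removal of mouse reads. The deposited values are TPM, 1 table per library, scaled by the authors to a sum of about 1000000. TPM keeps no depth, so the depth is unknown and no counting interval can be given. A total of 2210 rows whose symbol stands on several rows were left out.

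Genes averaging 1 TPM or more over the 6 libraries were tested with limma 3.58.1 (R 4.3.3) on log2(TPM + 1), allowing the variance to follow the mean level, with no covariate, two-sided, with Benjamini-Hochberg adjustment over all genes tested and a threshold of 0.05. Fold changes are rhLUM minus Ctrl on that scale, which understates low genes. The fit was run on simulated libraries with independent noise and changes in a small part of the genes. That setting does not cover shifts of many genes or libraries that are not independent. An exact permutation test of 3 against 3 cannot go below p = 0.1.

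The 10 genes and the gene lists were chosen with earlier results of these data known. Named genes were the 10, tested chemokines and receptors, tested neighbours on chromosome 4, the 5 closest patterns, and of each other list the 4 with the smallest p and those moving against its majority. Some of the latter are left out for brevity. ICAM1, TRAF1, RELA, IL1R1, MYD88, ADAM17 and the ligands and receptors near 0 were named after their values were seen. Promoter windows came from RefSeq, and transcripts and coordinates from GENCODE release 29. Alternatives were other scalings, pseudocount, filters, no trend, a replicate block and leaving out each library.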

Additional observations from a re-analysis of the deposited data

How the results depend on the processing

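All 9 tested chemokines kept their direction and their call under each of 14 alternatives, except that CXCL6 was not tested where at least 1 TPM was required in all 6 libraries, which left 8 genes called. Over the alternatives the log2 fold change of CXCL1 ran from -5.05 to -5.30, that of CXCL5 from -2.68 to -2.94, that of CXCL8 from -3.76 to -4.06, that of CXCL16 from -0.84 to -1.13 and that of CX3CL1 from -0.76 to -1.07. CXCL6 ran from -2.95 to -3.79, the latter with 0.1 TPM added in place of 1. Median-of-ratios, upper quartile and non-mitochondrial scaling moved the median of all genes by -0.16, -0.22 and -0.10. Upper quartile scaling gave 5157 genes lower over all genes, against 3299, and this follows from that shift. It also turned MT-ND5 from 0.12 to -0.12, and median-of-ratios scaling turned it to -0.047. Upper quartile scaling also put RELA at -0.23 and MYD88 -0.20, against 0.01 and 0.03. Of 83 other named genes, 66 kept direction and call under each alternative that tested them. The filter of at least 1 TPM in all libraries left 10 of the 83 untested, TNF, IL36G, CDH5 and DCN among them, and the scaling without mitochondrial genes left out 5 mitochondrial genes. With the replicate letter as a block (replicate block), 3219 genes were lower and all 9 tested chemokines stayed lower, and CXCL1, CXCL2 and CXCL3 summed stood at -4.83 (adjusted p = 1.52e-06). The labels do not say whether the letters pair the samples. Deviations of same-lettered libraries correlated at r = 0.029, -0.023 and 0.084, and those of differently lettered libraries at -0.0835 to 0.0505. Values this small cannot show whether the letters stand for pairs. Leaving out each library gave 2973 to 3124 genes lower and -4.78 to -4.85 for the sum. Unknown depth limits what can be said of CXCL10 and the receptors near 0.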
